A study of Mus musculus with 8 samples.

Results

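The IFIT family (interferon-induced proteins with tetratricopeptide repeats) was examined in RNAseq libraries of osteoclasts, the multinucleated cells that resorb bone. Its members were chosen by name, as the 6 mouse genes *Ifit1*, *Ifit2*, *Ifit3*, *Ifit3b*, *Ifit1bl1* and *Ifit1bl2*, and all 6 were found among the 46517 genes of the table by their Ensembl identifiers. The cells came from the femoral marrow of *Elmo1*-/- mice, a global knockout not limited to osteoclasts, and of *Elmo1*+/- mice, which keep 1 copy. Mice were 6 to 8 weeks old, and no source used here names the strain of these donors. The control libraries carry WT in their names, but the genotype label and the methods call them *Elmo1*+/-, so no library stands for the intact gene. All cultures received 10% medium conditioned by L929 cells, as a source of M-CSF, and 50 ng/ml RANKL, the cytokine that drives osteoclast formation, for 7 days. There were 4 mice and 4 libraries per genotype, sequenced as 75-base paired reads of mRNA, and neither interferon nor a virus is named among the treatments. The cultures were sequenced in 2 experiments with 2 mice of each genotype, and the replicate numbers of each experiment are not stated.

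ELMO1 is an adaptor that works with DOCK proteins to activate the GTPase Rac. IFIT proteins are cytoplasmic RNA-binding proteins of the antiviral response. IFIT1 binds mRNA whose 5′ cap lacks the methyl mark of the host and blocks its translation, IFIT3 binds other IFIT proteins, and IFIT2 is linked to cell death as well as to antiviral defence. The genes are silent or low in most resting cells and are switched on when type I interferon, through its receptor, assembles the transcription factor complex ISGF3, or when IRF3 is activated by foreign RNA, both of which act on a DNA element called the ISRE. In osteoclast precursors, RANKL induces interferon-beta, which acts back on the cells to restrain osteoclast formation.

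The 6 genes form 1 cluster on chromosome 19 (GRCm38, GENCODE M21, 1-based positions). In map order, *Ifit2* spans 34550694 to 34576419 on the plus strand and *Ifit3* spans 34583531 to 34588731 on the plus strand. *Ifit1bl1* follows on the minus strand at 34592891 to 34601956, then *Ifit3b* on the plus strand at 34607970 to 34613401. *Ifit1bl2* lies on the minus strand at 34617049 to 34640743 and holds a processed pseudogene on the other strand with which it shares no exon. *Ifit1* closes the row on the plus strand at 34640871 to 34650009. All 6 are annotated as protein coding.

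The starts of these genes were read from the RefSeq promoter table (GRCm38.p6), which covers 250 bases before to 50 after each start and matched all 6 members. It was searched on both strands for the core of the ISRE, which is 2 copies of GAAA with any 2 bases between them. The core was present in 3.44% of 32851 windows, and 2 or more copies in 0.225%. The stretches upstream of 4 members are printed because they show how the element is placed in the near-identical pair *Ifit3* and *Ifit3b*, in *Ifit1* and in *Ifit1bl1*. They read 5′ to 3′ towards the start of each gene, and capitals mark the core, which here lies on the opposite strand. They are chr19:34640744-34640888 (plus) for *Ifit1*, chr19:34583319-34583528 (plus) for *Ifit3*, chr19:34607747-34607956 (plus) for *Ifit3b* and chr19:34601969-34602138 (minus) for *Ifit1bl1*.
Ifit1: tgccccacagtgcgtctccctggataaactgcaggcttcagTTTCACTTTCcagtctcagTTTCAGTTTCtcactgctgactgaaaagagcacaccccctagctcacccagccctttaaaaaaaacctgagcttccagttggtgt
Ifit3: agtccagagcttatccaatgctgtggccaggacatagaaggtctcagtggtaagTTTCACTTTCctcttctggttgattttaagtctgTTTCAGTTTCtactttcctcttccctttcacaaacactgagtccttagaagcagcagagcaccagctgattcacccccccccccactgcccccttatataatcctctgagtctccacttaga
Ifit3b: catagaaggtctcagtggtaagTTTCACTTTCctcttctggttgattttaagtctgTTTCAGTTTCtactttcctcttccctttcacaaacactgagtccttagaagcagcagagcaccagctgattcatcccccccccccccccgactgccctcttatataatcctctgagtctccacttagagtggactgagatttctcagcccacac
Ifit1bl1: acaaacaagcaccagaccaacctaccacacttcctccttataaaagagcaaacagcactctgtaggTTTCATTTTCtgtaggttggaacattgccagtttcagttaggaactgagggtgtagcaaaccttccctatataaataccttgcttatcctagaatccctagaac

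*Ifit1*, *Ifit3* and *Ifit3b* each held 2 cores. Counted from the start, their first bases lay at -104 and -85 in *Ifit1*, at -156 and -122 in *Ifit3* and at -188 and -154 in *Ifit3b*. The windows of *Ifit3* and *Ifit3b* were the same at 258 of 260 aligned bases, or 99.2%. *Ifit1bl2* has 2 starts in the table, and the distal one faces that of *Ifit1* with 145 bases between them, so the *Ifit1* stretch printed is also the DNA upstream of that *Ifit1bl2* start and both cores serve as matches for both genes. *Ifit1bl1* has 2 starts with 1 core each. Neither window of *Ifit2* held the core, and these starts lie 19.3 and 19.7 kb before the first coding base, so the letters are absent only from these windows. Among 28 of the 34 other interferon-stimulated genes listed for comparison that had a window, 15 held the core (53.6%), beside 5 of the 6 members (83.3%) and 3.99% of all 27025 genes with a window. The GAS element (TTC and GAA with any 3 bases between them, in 8.30% of windows) and an NF-kB site (GGGA and CC with any 4 bases between them, in 20.7%) matched once each and overlapped in the first *Ifit2* window, and the NF-kB letters matched once more in the proximal *Ifit1bl1* window. A match is a description of letters and does not show that a factor binds there.

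**Figure D1:**
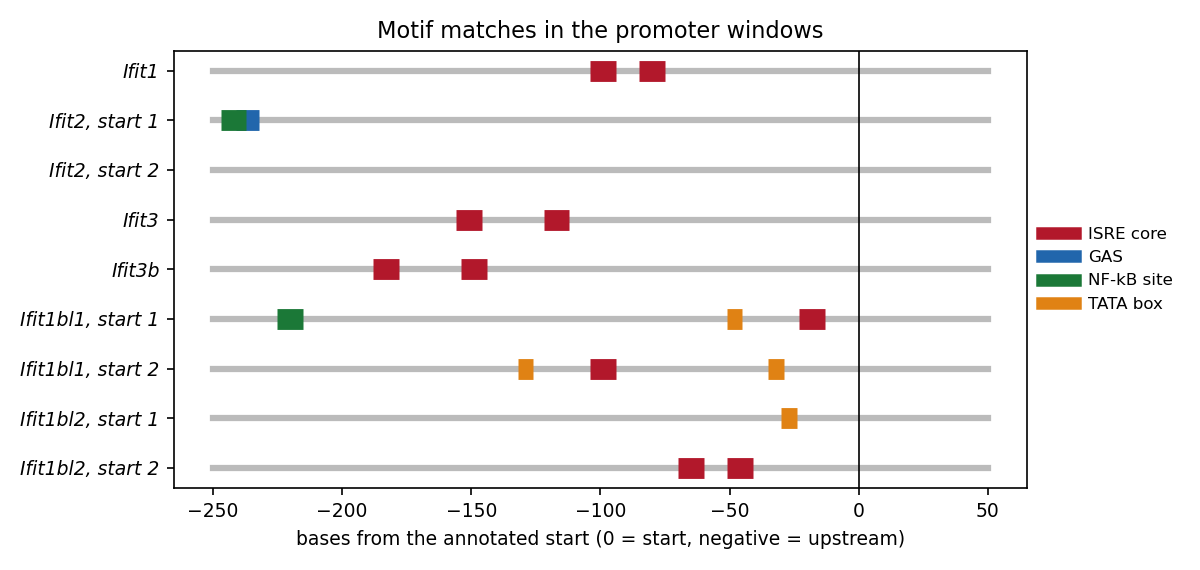
Matches to 4 motifs in the RefSeq promoter windows of the 6 members, 1 line per annotated start; the horizontal axis is the distance in bases from the start. ISRE cores (red) begin between -188 and -23 in the windows of *Ifit1*, *Ifit3*, *Ifit3b* and *Ifit1bl1* and of the distal start of *Ifit1bl2*, and in neither *Ifit2* window.

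The coding sequences set a limit on how far members can be told apart. *Ifit3* and *Ifit3b* each have 1209 coding bases and differ at 11 of them (99.1% identity). *Ifit1bl1* and *Ifit1bl2* were 88.3% identical over 1398 aligned bases, *Ifit1* and *Ifit1bl1* 76.0% over 1373, and *Ifit1* and *Ifit2* 56.5% over 1365. Of all 75-base windows of the *Ifit3* transcript, 41.1% occur without a mismatch in another member, and for *Ifit3b* the share was 35.7%. It was 5.19% for *Ifit1*, 5.34% for *Ifit1bl2*, 1.92% for *Ifit1bl1* and 0 for *Ifit2*, and none of these windows occurred in a gene outside the family. The handling of reads with more than 1 place of origin was not stated, so the split between *Ifit3* and *Ifit3b* is uncertain, while *Ifit2* is free of this limit.

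The libraries held between 20905502 and 40846651 reads on genes. *Elmo1* itself checked the labels, although reads on it remained in the *Elmo1*-/- libraries. Its normalized count (reads divided by the size factor of the library) was 274, 287, 316 and 291 in the *Elmo1*-/- libraries and 1528, 1423, 1769 and 1651 in the *Elmo1*+/- libraries, with no overlap and a log2 fold change of -2.44 ± 0.09 (SE; limma, adjusted p = 8.40e-06). The first principal component, with 62.3% of the variance of log2 values, put the libraries numbered 1 and 2 at 6.03 to 52.3 and those numbered 3 and 4 at -31.9 to -24.7, whatever the genotype. *Elmo1*-/- library 1 stood at the end, at 52.3. The summed normalized count of 10 osteoclast markers followed this split, at 450909 to 692445 in numbers 1 and 2 and 1029110 to 1173010 in numbers 3 and 4, and was lowest in *Elmo1*-/- library 1. The 8 macrophage markers summed to 198426 to 270839 and the 10 neutrophil markers to 10394 to 22657, both highest in that library. The macrophage sum was almost as high in *Elmo1*+/- library 1 (270772), and the neutrophil sum was mostly *S100a8*. All 10 osteoclast markers were detected, among them *Ctsk* and *Acp5*, 2 enzymes of the resorbing cell, at 69531 or more in every library. In bulk RNA, fewer cells of a type and less RNA per cell cannot be told apart. Results are therefore given with and without *Elmo1*-/- library 1.

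All 6 *Ifit* genes were expressed in osteoclasts of both genotypes, and all 6 passed the filter on low counts (at least 10 in at least 4 libraries), as did 14139 genes in all. To compare members with each other, normalized counts were divided by exon length. In *Elmo1*+/- osteoclasts the order per kb was *Ifit3* at 651 ± 90.3 (SD, n = 4), *Ifit1* at 548 ± 75.0, *Ifit2* at 315 ± 77.6, *Ifit3b* at 102 ± 10.1, *Ifit1bl1* at 36.4 ± 13.0 and *Ifit1bl2* at 7.65 ± 1.66. *Ifit3* and *Ifit1* overlapped between libraries, while every other neighbouring pair in this order did not. In *Elmo1*-/- osteoclasts the order was the same, from 1085 ± 593 per kb for *Ifit3* and 775 ± 199 for *Ifit1* to 9.48 ± 1.60 for *Ifit1bl2*. The family therefore divided into abundant members, *Ifit1*, *Ifit2* and *Ifit3*, and the copies *Ifit3b*, *Ifit1bl1* and *Ifit1bl2*, of which *Ifit1bl2* rested on 19 to 43 reads per library.

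The comparison of genotypes asked how *Elmo1* loss changed the osteoclast transcriptome. Every member had a higher mean in *Elmo1*-/- osteoclasts, by 1.24-fold for *Ifit1bl2* to 1.57-fold for *Ifit3b*, but none passed the test and the genotypes overlapped for all 6. The size of the difference rested in large part on *Elmo1*-/- library 1, which had the highest level of 5 of the 6 members, and on its partner in number, *Elmo1*+/- library 1, which had the lowest *Elmo1*+/- level of 5.

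*Ifit1*, which recognises the undermethylated cap, had normalized counts of 2743, 1726, 1568 and 2200 in *Elmo1*-/- libraries 1 to 4 and 1183, 1484, 1495 and 1661 in *Elmo1*+/- libraries 1 to 4. All but 1 of the *Elmo1*-/- libraries lay above every control, and library 3 lay between the controls. The log2 fold change was 0.48 ± 0.18 (SE; limma, p = 0.0265, adjusted p = 1.00; exact two-sided permutation p = 0.0571).

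*Ifit2* had normalized counts of 2388, 1716, 1379 and 2114 in *Elmo1*-/- libraries 1 to 4. Its *Elmo1*+/- values were 859, 1127, 1451 and 1516. Libraries 1, 2 and 4 of the *Elmo1*-/- mice exceeded all controls, but library 3 fell below controls 3 and 4. The log2 fold change was 0.62 ± 0.22 (limma, p = 0.0194, adjusted p = 1.00; exact permutation p = 0.0857).

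*Ifit3*, the binding partner of other IFIT proteins, had normalized counts of 3393, 1340, 1097 and 1741 in *Elmo1*-/- libraries 1 to 4. In *Elmo1*+/- libraries it had 934, 1243, 1089 and 1278. Here *Elmo1*-/- library 1 was 2.44 times the mean of the other *Elmo1*-/- libraries, and library 2 lay only just above the highest control. The log2 fold change was 0.61 ± 0.31 (limma, p = 0.0820, adjusted p = 1.00; exact permutation p = 0.114).

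*Ifit3b*, its near-identical copy, had 626, 280, 192 and 314 in *Elmo1*-/- libraries and 180, 216, 196 and 226 in *Elmo1*+/- libraries. The pattern was that of *Ifit3*, and the ratio of *Ifit3b* to *Ifit3* was 0.184 ± 0.012 (SD over 8 libraries), within 0.173 to 0.209. The log2 fold change was 0.65 ± 0.31 (limma, p = 0.0634, adjusted p = 1.00; exact permutation p = 0.114). With shared sequence over more than 1 in 3 windows, the pair cannot be taken as separate measurements.

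*Ifit1bl1* had 133, 95.8, 75.1 and 143 in *Elmo1*-/- libraries and 47.8, 73.2, 89.8 and 118 in *Elmo1*+/- libraries, a log2 fold change of 0.47 ± 0.30 (limma, p = 0.158; exact permutation p = 0.2). It was the member whose highest level was in *Elmo1*-/- library 4 instead of 1. *Ifit1bl2*, the least abundant, had 38.8, 28.7, 26.7 and 33.5 against 23.9, 18.8, 28.9 and 31.4, a log2 fold change of 0.31 ± 0.22 (limma, p = 0.192; exact permutation p = 0.2). In both, 2 of the *Elmo1*-/- libraries lay under the highest control.

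The order of the libraries was largely common to the members. *Elmo1*-/- library 3 had the lowest *Elmo1*-/- level of all 6, and *Elmo1*+/- library 4 the highest *Elmo1*+/- level of all 6.

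**Figure D2:**
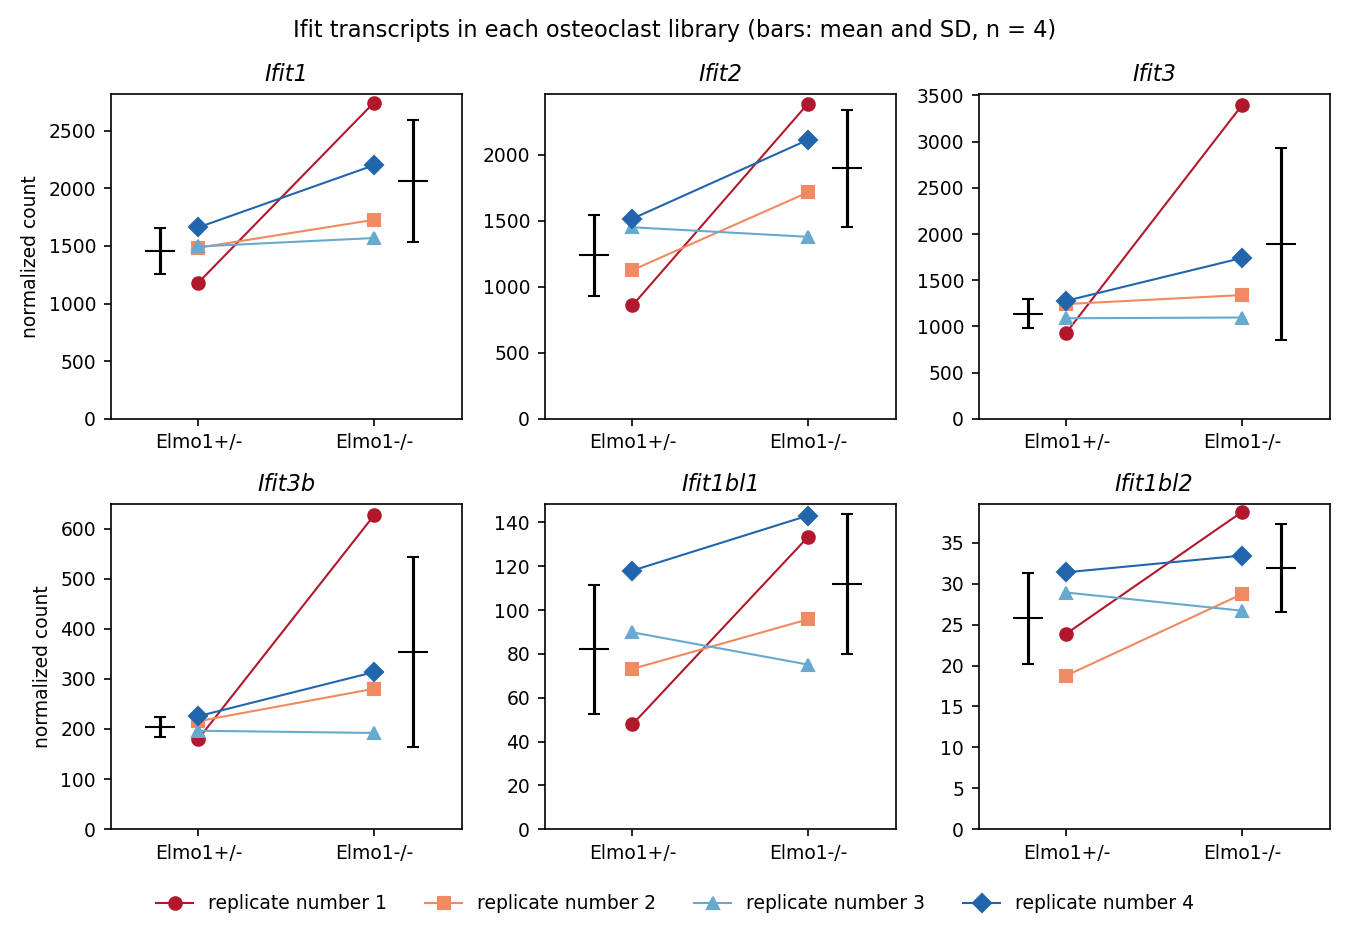
Normalized counts of each member, with axes from 0; coloured points are libraries, lines join libraries with the same replicate number, and black bars give the mean and SD (n = 4) of each genotype. The line for number 1 is the steepest in every panel, and the genotypes overlap in all 6.

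With Benjamini-Hochberg adjustment over 14139 genes, 0 of the 6 members were called, beside 0.00707% of all genes tested, which was *Elmo1* alone. At an unadjusted p under 0.05, limma had 2 members (*Ifit1* and *Ifit2*), beside 0.53% of all genes on the higher side. On reads recovered from the table, edgeR and DESeq2 also called 0 members, and each had 4 at an unadjusted p under 0.05, beside 0.556% (edgeR) and 0.402% (DESeq2) of all genes on the higher side. All 6 fold changes were above 0, beside 48.4% of all genes, and their median was 0.54, beside -0.003 over all genes tested. The members were chosen with earlier results of these data known. *Ifit1*, *Ifit2*, *Ifit3* and *Ifit3b* are among the genes the study listed as regulated by *Elmo1* in these same libraries. Levels of the members also moved together across libraries. Counts of members here and below therefore describe the family and are not a test of it. The exact test over the 70 arrangements of libraries could reach 0.0286 at the lowest. No member was higher without overlap between the genotypes, as 0.502% of all genes were.

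The libraries were next compared within each replicate number. Same-numbered libraries deviated together, though only weakly in number 2 (correlation 0.16). So did most libraries of different number within numbers 1 and 2 or within 3 and 4. Pairing by number could therefore not be told apart from that split. *Ifit1* and *Ifit3* were higher in the *Elmo1*-/- library in 4 of 4 numbers, beside 4.7% of all genes, and the other 4 members in 3 of 4 (29.5% of all genes were higher in at least 3). In number 1 the differences were 1.21 for *Ifit1*, 1.47 for *Ifit2*, 1.86 for *Ifit3*, 1.79 for *Ifit3b*, 1.46 for *Ifit1bl1* and 0.68 for *Ifit1bl2* on the log2 scale. In number 2 they lay between 0.11 (*Ifit3*) and 0.61 (*Ifit2*), and in number 4 between 0.09 (*Ifit1bl2*) and 0.48 (*Ifit2*). Number 3 held the exceptions, from -0.25 for *Ifit1bl1* to 0.07 for *Ifit1*. Number 1 thus supplied 54.5% (*Ifit1bl2*) to 78.3% (*Ifit1bl1*) of the summed difference. With the replicate number as a block, limma called no member either, and no member had an unadjusted p under 0.05, beside 1.29% of all genes on the higher side. With the block and without *Elmo1*-/- library 1, *Ifit1* and *Ifit2* were again under an unadjusted 0.05, beside 1.42% of all genes, and none was called.

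**Figure D3:**
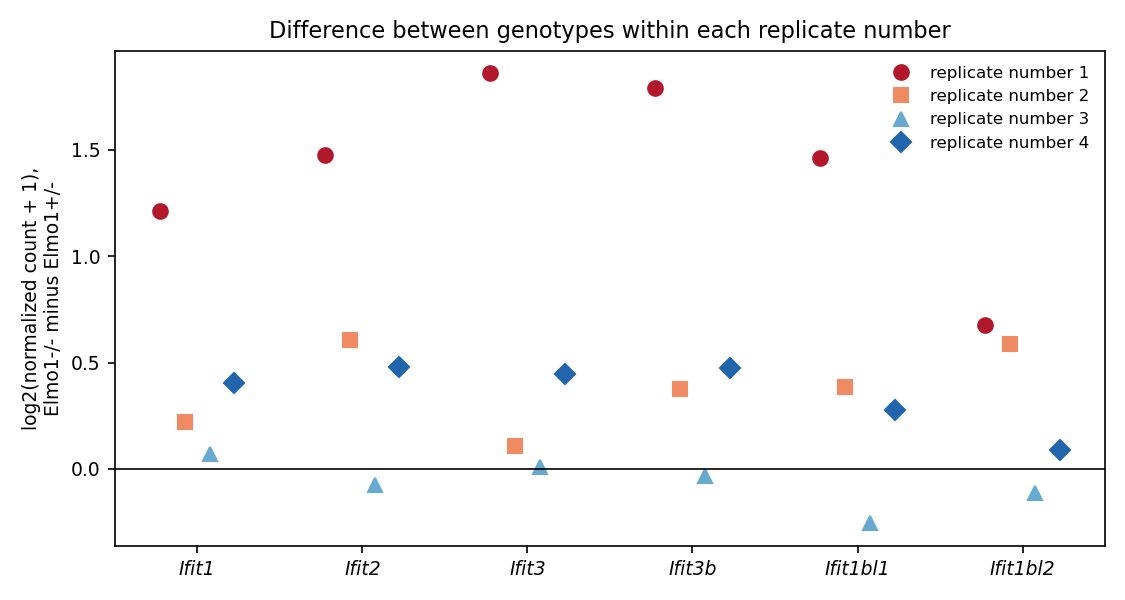
Log2 difference in normalized count (plus 1) between the *Elmo1*-/- and the *Elmo1*+/- library of each replicate number, by member. Number 1 has the highest difference for every member, up to 1.86 for *Ifit3*, and number 3 lies at or below 0.07.

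Leaving out *Elmo1*-/- library 1 kept every fold change above 0 and made each smaller. The log2 fold change was then 0.33 for *Ifit1*, 0.50 for *Ifit2*, 0.28 for *Ifit3*, 0.33 for *Ifit3b*, 0.37 for *Ifit1bl1* and 0.21 for *Ifit1bl2*, with a median of 0.33. No member was called (limma, adjusted p = 0.936 for each), and 1 member, *Ifit2*, had an unadjusted p under 0.05, beside 1.21% of all genes on the higher side. *Ifit3* and *Ifit3b* lost the most, and *Ifit2* kept the highest value. Without both libraries numbered 1, a comparison added after the data were seen, the values were 0.23, 0.34, 0.19, 0.27, 0.14 and 0.19 in the same order, and no member was called. The 95% confidence interval of *Ifit2* was then -0.07 to 0.75.

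The study used the mean of *Elmo1*-/- osteoclasts divided by the sum of both means, a ratio at which equal means give 0.5, and applied it to groups of 2 mice per genotype. Here it was taken once over all 4 mice per genotype, which is a different calculation. For the members this pooled ratio ran from 0.553 (*Ifit1bl2*) to 0.633 (*Ifit3b*). Without *Elmo1*-/- library 1 it ran from 0.535 (*Ifit1bl2*) to 0.584 (*Ifit2*). By its own calculation the study listed *Ifit1*, *Ifit2*, *Ifit3* and *Ifit3b* among the genes regulated by *Elmo1*, with ratios above 0.5. Here limma called none of them.

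The difference also varied with the split of the libraries. Within numbers 1 and 2 the log2 fold change was 0.72 for *Ifit1*, 1.04 for *Ifit2*, 0.98 for *Ifit3*, 1.08 for *Ifit3b*, 0.92 for *Ifit1bl1* and 0.63 for *Ifit1bl2*. Within numbers 3 and 4 it was 0.24, 0.20, 0.23, 0.22, 0.01 and -0.01. The contrast between the 2 pairs was not called for any member (limma interaction, adjusted p = 1.00 for each), and was 0.84 ± 0.31 for *Ifit2* at an unadjusted p of 0.0260. The osteoclast marker sums given above moved with the same split, and within it with genotype. Within numbers 1 and 2 they were 450909 and 527397 in *Elmo1*-/- and 692445 and 589401 in *Elmo1*+/- libraries. Within numbers 3 and 4 they were 1173010 and 1154860 against 1091130 and 1029110. The median log2 fold change of the 10 osteoclast markers was -0.47 within numbers 1 and 2 and 0.20 within numbers 3 and 4. The part of these markers in the *Ifit* difference was not tested. The comparisons within numbers 1 and 2 and within numbers 3 and 4 were also added after the data were seen.

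**Figure D4:**
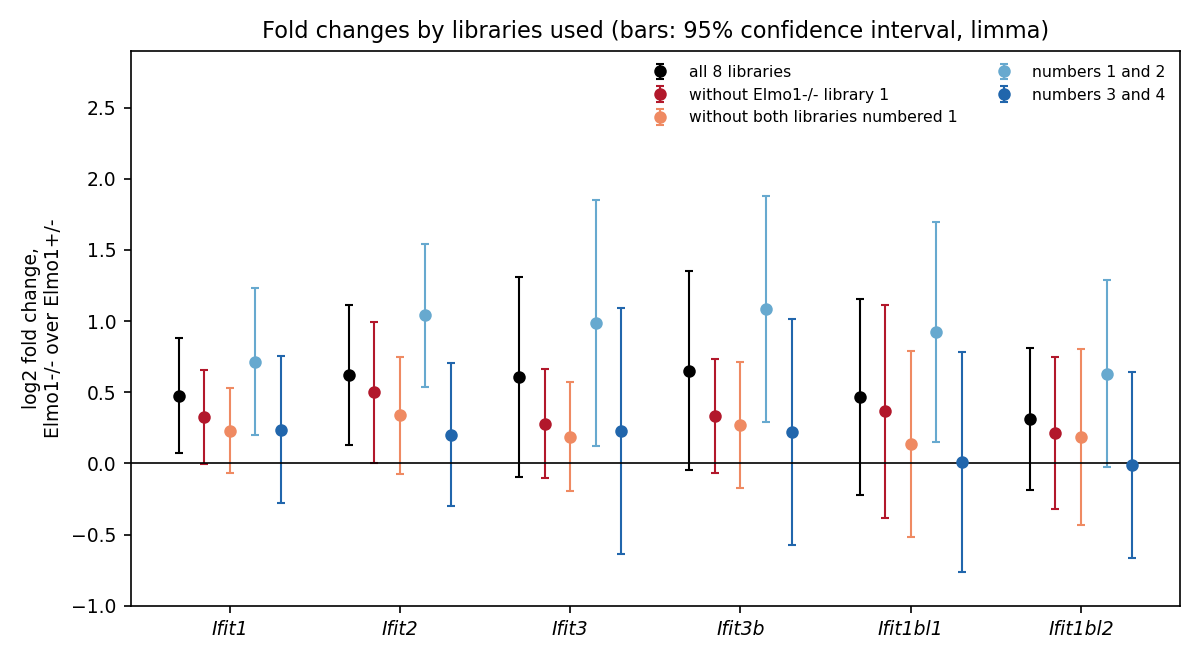
Log2 fold changes of the 6 members with 95% confidence intervals from limma, for all 8 libraries, without *Elmo1*-/- library 1, without both libraries numbered 1, and within each pair of replicate numbers. Values within numbers 1 and 2 (0.63 to 1.08) are the highest for every member, and those within numbers 3 and 4 lie between -0.01 and 0.24.

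The proportions among members varied between libraries. The ratio of *Ifit3* to *Ifit1* in normalized counts was 1.24 in *Elmo1*-/- library 1 and 0.699 to 0.837 in the other 7. The ratio of *Ifit2* to *Ifit1* stayed within 0.726 to 0.994 and was lowest in *Elmo1*+/- libraries 1 and 2 (0.726 and 0.759). The ratio to *Ifit1* ran from 0.0404 to 0.0711 for *Ifit1bl1*, with both ends in *Elmo1*+/- libraries (1 and 4), and from 0.0127 to 0.0202 for *Ifit1bl2*. Described across the 8 libraries, which share depth and culture with every gene, the Pearson correlation of log2 values was 0.95 between *Ifit1* and *Ifit2*, 0.95 between *Ifit1* and *Ifit3* and 0.99 between *Ifit3* and *Ifit3b*, and lowest between *Ifit3* and *Ifit1bl2*, at 0.70. Without *Elmo1*-/- library 1 these were 0.96, 0.95, 0.94 and 0.48. Averaged over members, the centred log2 level was 0.82, 0.06, -0.23 and 0.39 in *Elmo1*-/- libraries 1 to 4 and -0.59, -0.32, -0.16 and 0.03 in *Elmo1*+/- libraries 1 to 4.

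The 10 other genes whose levels were most like this average had correlations of 0.93 to 0.98 over the 8 libraries, and of 0.84 to 0.98 over the 7 without *Elmo1*-/- library 1. *Cmpk2*, a mitochondrial nucleotide kinase, was first (0.98, and 0.98 without that library), followed by *Rsad2*, the antiviral enzyme viperin, and *Gbp2*, an interferon-induced GTPase. The others were *Ifi205*, *Trim12c*, *Parp12*, *Herc6*, *Iigp1*, *Trim30d* and *Pprc1*. Of the 10, 7 were on the list of other interferon-stimulated genes, which holds 33 of the 14139 genes tested. That list was written with earlier results of these data known and holds genes the study reported as altered in these libraries. The count of 7 is therefore a description and not a test. The order depended on *Elmo1*-/- library 1, since without it 1 of the 10 (*Cmpk2*) stayed among the first 10, *Rsad2* came 27th, *Gbp2* 42nd and *Pprc1* 297th. *Cmpk2* had normalized counts of 1395, 1086, 867 and 1235 in *Elmo1*-/- libraries and 757, 832, 914 and 974 in *Elmo1*+/- libraries, with library 3 of the *Elmo1*-/- mice again inside the range of the controls.

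The genes upstream of the family were examined as ligands, receptors and regulators. Of 12 interferon genes, 8 had 0 reads in all 8 libraries. A count of 0 allows up to 3 reads in a library, by counting error alone. The other 4 had between 1 and 9 reads in total, with at most 3 in a library, and none reached the filter for testing. Of the numbered *Ifna* genes only *Ifna1*, *Ifna2*, *Ifna4* and *Ifna5* were listed. Sequence shared among interferon genes was not examined, and the handling of reads with more than 1 place of origin was not stated. *Ifnb1*, the interferon induced by RANKL, had 7 reads over the *Elmo1*-/- and 2 over the *Elmo1*+/- libraries, and this difference was not tested.

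The receptor and ISGF3 genes were all tested, with 0 of 10 called and a median log2 fold change of 0.08 (0.04 without *Elmo1*-/- library 1). *Ifnar1* and *Ifnar2*, the chains of the type I interferon receptor, had log2 fold changes of 0.10 ± 0.07 and 0.05 ± 0.12 (0.10 and -0.05 without that library). *Stat2*, a subunit of ISGF3, had normalized counts of 5231, 3138, 2553 and 3246 in *Elmo1*-/- libraries and 2918, 3219, 2420 and 2632 in *Elmo1*+/- libraries. Library 1 of the *Elmo1*-/- mice stood above all others, and the remaining libraries of both genotypes overlapped. The log2 fold change of *Stat2* was 0.30 ± 0.20, and that of *Irf9*, the DNA-binding subunit, was 0.11 ± 0.09. Without *Elmo1*-/- library 1 they were 0.09 and 0.04.

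Among 6 IRF regulators 0 were called, with a median of 0.09 that became -0.06 without *Elmo1*-/- library 1. *Irf7*, the amplifier of the interferon response, had 25956, 6032, 4960 and 7253 in *Elmo1*-/- libraries and 9340, 9260, 4038 and 5759 in *Elmo1*+/- libraries. Its log2 fold change was 0.37 ± 0.51, and -0.16 without that library. In the *Elmo1*+/- libraries *Irf7* was thus higher in numbers 1 and 2, while *Ifit2* (859 and 1127 against 1451 and 1516) and *Ifit1bl1* (47.8 and 73.2 against 89.8 and 118) were lower there. *Ifit1* and *Ifit1bl2* were also lower there, while *Ifit3* and *Ifit3b* overlapped between numbers 1 and 2 and numbers 3 and 4. *Irf3*, which can act on these genes without interferon, had a log2 fold change of -0.02 ± 0.12.

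The sensors of cytosolic RNA gave 0 of 9 called, with a median of 0.17 (0.08 without *Elmo1*-/- library 1), from -0.02 for the adaptor *Mavs* to 0.45 for the nucleic acid sensor *Zbp1* (0.09 without that library). Of 5 genes listed as feedback inhibitors 0 were called, with a median of 0.10, and *Isg15* was the highest at 0.43 (0.14 without that library). The 5 genes of mRNA capping and cap methylation gave 0 called and a median of 0.00, from -0.03 for *Rngtt* to 0.10 for *Cmtr1*. The genes on either side of the cluster gave 0 of 7 tested called and a median of -0.01, with *Ch25h*, itself induced by interferon, at 0.37 and *Fas*, the death receptor, at -0.12.

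The list most like the family was that of 34 other interferon-stimulated genes, of which 33 passed the filter. Again 0 were called, and the median log2 fold change was 0.32, or 0.18 without *Elmo1*-/- library 1, beside 0.54 and 0.33 for the *Ifit* genes. All 33 were above 0, 16 were higher in *Elmo1*-/- in 4 of 4 numbers (beside 4.7% of all genes), and 30 were highest in *Elmo1*-/- library 1 (beside 27.1% of all genes, and 5 of 6 *Ifit* genes). This list was written with earlier results of these data known. It holds genes, among them *Tnfsf10* and *Cxcl10*, that the study reported as altered in these same libraries. Those counts therefore describe the list and are not a test of it. *Tnfsf10*, which encodes the death ligand TRAIL, was the largest at 1.07 ± 0.24, with 43.5, 35.9, 24.2 and 37.3 against 19.3, 15.8, 12.2 and 17.1 and no overlap. *Cxcl10*, a chemokine, followed at 0.75 ± 0.21, and at 0.76 without that library, so that it did not shrink as the *Ifit* genes did. The membrane proteins *Ifitm3* and *Bst2* were lowest at 0.09 and 0.10, and became -0.19 and -0.24 without it. None of these passed the test (limma).

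**Figure D5:**
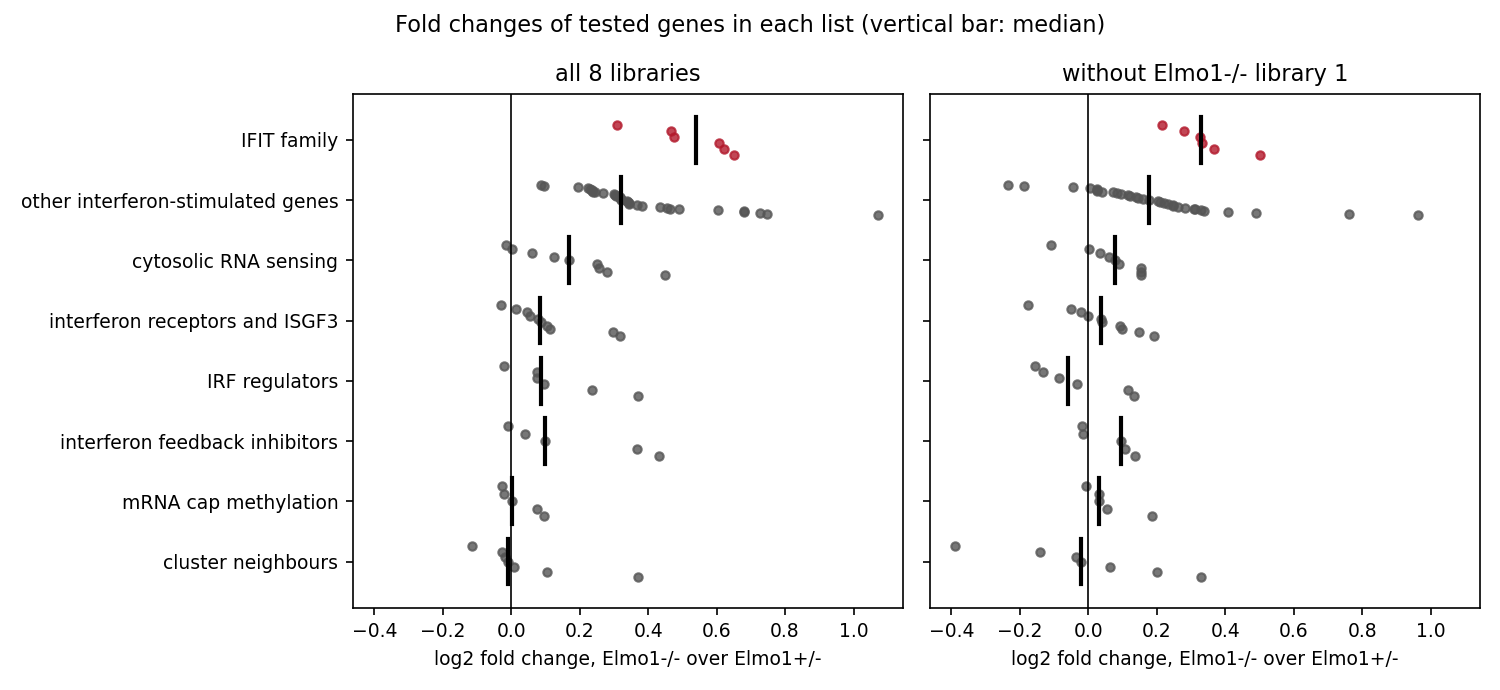
Log2 fold changes of the tested genes of each list, for all 8 libraries (left) and without *Elmo1*-/- library 1 (right); points are genes and vertical bars are medians. The median of the *Ifit* genes (red) moves from 0.54 to 0.33 and that of the other interferon-stimulated genes from 0.32 to 0.18.

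Markers of other cells were read beside the *Ifit* genes. Of the plasmacytoid dendritic cell markers, a cell known for interferon production, *Klk1* was at 0 in all libraries and *Siglech* at no more than 1.20. *Ccr9* was at 19.9 in *Elmo1*-/- library 1 and 5.93 to 12.4 in the others. It was higher in *Elmo1*-/- in 4 of 4 numbers, beside 4.7% of all genes (log2 fold change 0.45 ± 0.34, not called by limma). The part of *Ccr9* in the *Ifit* levels was not tested. *Cox6a2* was at 46.7 to 86.4 and was higher in *Elmo1*-/- in 1 of 4 numbers, with a log2 fold change of -0.19 ± 0.20. That of *Tcf4* was 0.01 ± 0.11. The 6 together summed to 1045 to 1364 in *Elmo1*-/- and 1059 to 1388 in *Elmo1*+/- libraries, most of it *Tcf4*. The 6 T and NK cell markers summed to at most 9.14 in any library, with *Cd3g* and *Ncr1* at 0 in all. The 5 B cell markers summed to 164 to 416 in *Elmo1*-/- and 164 to 336 in *Elmo1*+/- libraries, most of it *Cd79b*. The 5 stromal markers summed to 497 to 1125 and 489 to 1138. The neutrophil sum was 22657 in *Elmo1*-/- library 1, where the levels of most *Ifit* genes were highest, and 10394 to 13178 in the other *Elmo1*-/- libraries, beside 12326 to 21553 in the controls. Most of it was *S100a8*, at 16438 in *Elmo1*-/- library 1 and highest in *Elmo1*+/- library 2 (17708). *Mpo*, *Elane*, *Prtn3* and *Ctsg* were highest in *Elmo1*+/- library 4, and the remaining neutrophil markers in *Elmo1*-/- library 1. The part of the neutrophil sum in the *Ifit* levels was not tested.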

How the data were processed

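The authors extracted total RNA, prepared Illumina TruSeq mRNA libraries, counted reads per gene and normalized them with DESeq2. FastQC, STAR and featureCounts are named in the submitters' processing notes without versions. No source used here gives the build, the annotation, the strand setting or the treatment of multiply mapping reads. As deposited, the table gives a signal for 46517 genes, which is the read count divided by a size factor of the library. It also has columns of the authors' own comparison (log2 fold change with its standard error, a score and p-values), which were not used. Gene names, positions and exon lengths came from GENCODE M21 (GRCm38), in which 46005 identifiers had a symbol. Values divided by the step of their library were whole reads in 100% of cases (within 0.01), and these served only for edgeR 4.0.16 and DESeq2 1.42.0 as alternatives.

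The main test was limma 3.58.1 (R 4.3.3; trend and robust moderation) on log2(normalized count + 1), without a block, for genes that reached 10 in 4 or more libraries. P-values were adjusted by Benjamini-Hochberg and called under 0.05. Fold changes are on that scale and understate changes of low genes. Fits were tested on simulated data that held no split of numbers and no library that stood apart. That test does not cover these features of the real libraries. The members, lists and comparisons were chosen with earlier results of these data known. Named genes were the members, *Elmo1*, the highest and lowest of each list, genes of the interferon receptor and ISGF3 (of which 1 is not reported here), and the 10 genes most like the family. Other genes were named after their values were seen. No pair of libraries of a genotype was a copy. Residuals of same-numbered libraries correlated at 0.70, 0.16, 0.60 and 0.52 (numbers 1 to 4), all over 0.1, so the numbers were taken as pairs from the data, not the labels. Libraries of different number and genotype correlated at 0.69 and 0.03 within numbers 1 and 2 and at 0.56 and 0.61 within 3 and 4, so the numbers cannot be told apart from that split. Each library is 1 mouse. Sequences were aligned with Biopython 1.88.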

Additional observations from a re-analysis of the deposited data

How the results depend on the processing

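In 19 planned and 4 added settings no member was called, and 136 of 137 fold changes of members stayed above 0. The exception was *Ifit1bl2* within numbers 3 and 4, at -0.0115. Not every setting could move a fold change, so this count holds repeats. With no library left out, the replicate block, a term for the split of numbers and the changed filters return the main value. The block without *Elmo1*-/- library 1 and the fits without both libraries numbered 1 also share the same values. A minimum count of 50 left out *Ifit1bl2*, so it has no value there. The lowest adjusted p of a member was 0.430 (*Ifit2* within numbers 1 and 2, limma). With the replicate block the median fold change of members was 0.54 on the log2 scale, and the block changed no call of a member or of *Elmo1*. With the block and without *Elmo1*-/- library 1 the median was 0.21. Within numbers 1 and 2 the median was 0.95, which moved by more than the spread between libraries (0.37); the cause was not tested. *Elmo1* was called in every setting, and 2 genes instead of 1 were called by DESeq2 and without *Elmo1*+/- library 2, the second being *Gpr137b-ps* in both, named after its values were seen. Leaving out single libraries gave 1 to 2 called genes, 0 called members and a member median of 0.33 (without *Elmo1*-/- library 1) to 0.70 (without *Elmo1*-/- library 3). Over these, *Ifit1* ranged from 0.33 to 0.60, *Ifit2* from 0.46 to 0.76, *Ifit3* from 0.28 to 0.82, *Ifit3b* from 0.33 to 0.90, *Ifit1bl1* from 0.23 to 0.66 and *Ifit1bl2* from 0.17 to 0.41. *Ifit1bl1* was lowest without *Elmo1*+/- library 1 and *Ifit1bl2* without *Elmo1*+/- library 2 (0.17). Precision was limited by 4 libraries per genotype and, for *Ifit1bl2*, by 19 to 43 reads per library.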
